A study of Saccharomyces cerevisiae with 6 samples.

Results

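The nucleosomes described here are those whose read count changed at least 2-fold in wildtype budding yeast when the cells were moved from galactose to dextrose. The authors' lists of called nucleosomes from wildtype at 0 h and at 3 h were joined, leaving out calls of the 3 h list within 80 bp of a 0 h call, which gave 58302 positions. At each position the read centres within 50 bp of the called centre were counted in every library. A nucleosome was kept where the log2 of (3 h count + 1) over (0 h count + 1) in wildtype was 1 or more or -1 or less, with at least 60 read centres at one of the times. Of 30382 positions with at least 60 read centres, 1496 were kept, 708 gained (2.33%) and 788 lost (2.59%). With at least 100 read centres 336 were gained and 174 lost, so that the size of both sets depends on this minimum. With identical read intervals counted once the sets were empty. Such narrow windows hold few distinct intervals and the minimum of 60 was kept, so the empty sets do not show what repeated reads contribute. The nucleosomes were chosen by these wildtype read counts, so every wildtype value below is a description, and nothing in wildtype was tested.

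The assay was MNase-seq, in which micrococcal nuclease cuts linker DNA and the protected mononucleosomal DNA of formaldehyde-fixed cells is sequenced from a single end. The 6 libraries came from wildtype (strain YEF473A) at 0 h and 3 h (n = 1 each) and from the H3 shutoff strain (DCB200.1) at 0 h and 3 h (n = 2 each). In H3 shutoff cells HHT1 is deleted and HHT2, the remaining histone H3 gene, is driven by the GAL1 promoter, so that dextrose ends H3 synthesis. All cultures were grown in rich galactose medium. The 0 h cells were taken right after filtration, a wash and resuspension in dextrose medium, so that no library comes from cells still in galactose. The 3 h cells had been diluted in fresh dextrose medium and grown on. By 3 h the wildtype had kept dividing while H3 shutoff cells are described by the study as arrested in G2/M. Change of medium, H3 depletion and cell cycle arrest cannot be told apart within the H3 shutoff strain. The 0 h and 3 h libraries of a replicate came from a single culture and are called a pair.

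In nucleosomes, DNA is wrapped around an octamer of histones, and most yeast genes carry a regular array of them behind a nucleosome-depleted region at the promoter. Remodelling enzymes, transcription and general regulatory factors set where the array starts and how full it is. When glucose replaces another carbon source, yeast represses genes of gluconeogenesis, respiration and galactose use and induces genes of growth, and chromatin at individual genes is known to be rearranged as their transcription changes.

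Each library held the same number of reads, 5000001, so that counts show shares of reads and not absolute occupancy, and an even loss over the genome leaves them unchanged. Intervals on wildtype counts cover counting error at most, since each time has 1 library. The reads carry no molecular identifiers, so repeated reads are counted as separate ones. In the H3 shutoff libraries fewer reads lay near called centres at 3 h. The 30382 positions held 50.4% and 52.5% of all read centres in replicates 1 and 2 at 0 h and 37.1% and 38.5% at 3 h, against 57.9% and 59.0% in wildtype at 0 h and 3 h. Over these positions the median log2 change was therefore -0.39 in pair 1 and -0.45 in pair 2, and the values below are read against it. With 1 wildtype pair the wildtype changes have no replicate error. A 2-sided permutation of the 4 H3 shutoff libraries between the times could not reach a p below 1 in 3. Fewer arrangements remain where the pairs are kept together.

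The gained nucleosomes held a median of 38 read centres in wildtype at 0 h and 96 at 3 h. In H3 shutoff replicate 1 the medians were 68 at 0 h and 58 at 3 h. In replicate 2 they were 46 at 0 h and 61 at 3 h. At the sites gained in wildtype, replicate 1 thus started high and replicate 2 started close to the wildtype 0 h level. Both H3 shutoff libraries at 3 h lay between the wildtype values.

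The lost nucleosomes were the mirror image in wildtype, with medians of 79 read centres at 0 h and 33 at 3 h. H3 shutoff replicate 1 held 52 at 0 h and 54 at 3 h, and replicate 2 held 65 at 0 h and 49 at 3 h. Here replicate 1 started low, and again replicate 2 at 0 h was the library of the H3 shutoff strain closest to wildtype at 0 h.

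**Figure D1:**
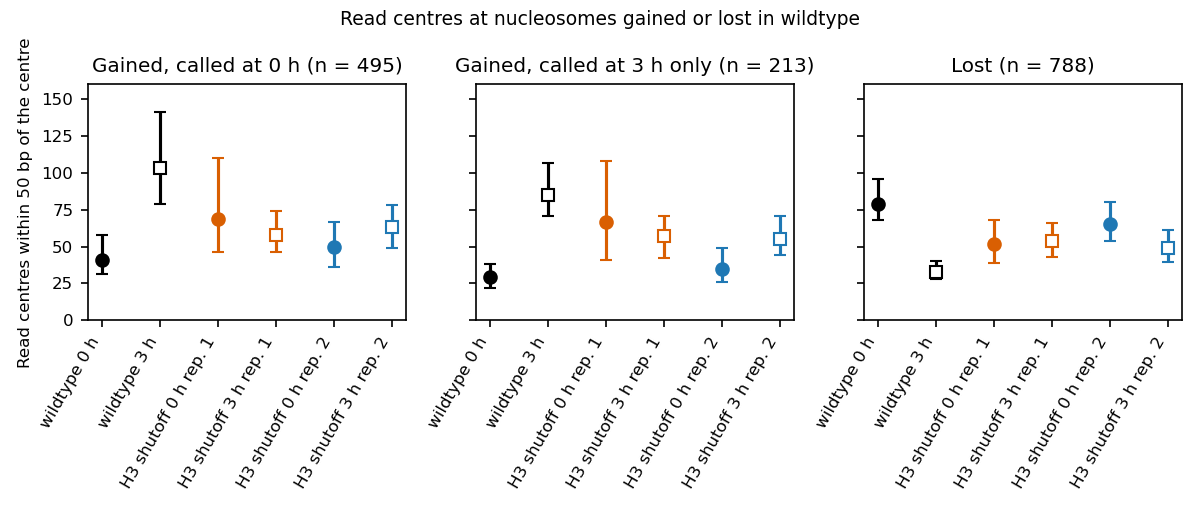
Read centres within 50 bp of the centre (vertical axis) in each of the 6 libraries, for gained nucleosomes called at 0 h, gained nucleosomes called at 3 h only, and lost nucleosomes. Points are medians over nucleosomes and bars run from the lower to the upper quartile; in both gained sets H3 shutoff 0 h replicate 1 (medians 69 and 67) sits above replicate 2 (50 and 35).

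The wildtype change reached a log2 of 3.49 among gained nucleosomes (median 1.26) and -3.17 among lost ones (median -1.18). Just inside the threshold, a gained nucleosome on chromosome 1 centred at 179079 had 39 and 79 wildtype read centres at 0 h and 3 h, and one on chromosome 2 at 796829 had 51 and 103. Just outside it, positions on chromosome 13 at 242042 and chromosome 3 at 64461 had 293 and 585, and 102 and 204. Lost nucleosomes just inside it on chromosome 1 at 59757 and 141617 had 67 and 33, and 69 and 34. The nearest ones outside, on chromosome 7 at 98480 and chromosome 12 at 552462, had 182 and 91, and 138 and 69. All coordinates are of the sacCer1 build, as the deposited lists give them.

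The change was narrow at many sites. In a window about 3 times as wide, the median wildtype log2 change was 0.84 at gained and -0.72 at lost nucleosomes, and 243 (34.3%) and 141 (17.9%) still changed 2-fold, against 1.42% of all 30382. Of the gained nucleosomes, 495 were called in the wildtype 0 h list and 213 at 3 h only. Of the lost ones, 363 (46.1%) had a 3 h wildtype call within 20 bp and 199 (25.3%) had none within 80 bp, against 82.8% and 6.48% of all 30382. A loss of read centres at a fixed position therefore included places where the array was called elsewhere at 3 h. Fuzziness is the s.d. of the read centres about the nearest call, taken at any distance. In wildtype its median was 34.1 bp at 0 h and 25 bp at 3 h at gained nucleosomes, and 31.7 and 36.9 bp at lost ones. At the 213 gained sites called at 3 h only, the 0 h value is that of another call over 80 bp away. The same holds at 3 h for the 199 lost sites without a call within 80 bp. These medians thus partly compare different nucleosomes. Distinct intervals made up a smaller share of wildtype reads at gained sites at 3 h, 35.4% against 59.5% at 0 h. At lost sites the share was larger, 63.2% against 44.4%. Their number went the other way at the largest gain, chr2:451490-451590, from 7 to 33. It also did at the largest loss, on chromosome 14 at 210463, from 40 to 9. The part of repeated intervals in the counts was not tested, and the recount given with the alternatives cannot show it.

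**Figure D2:**
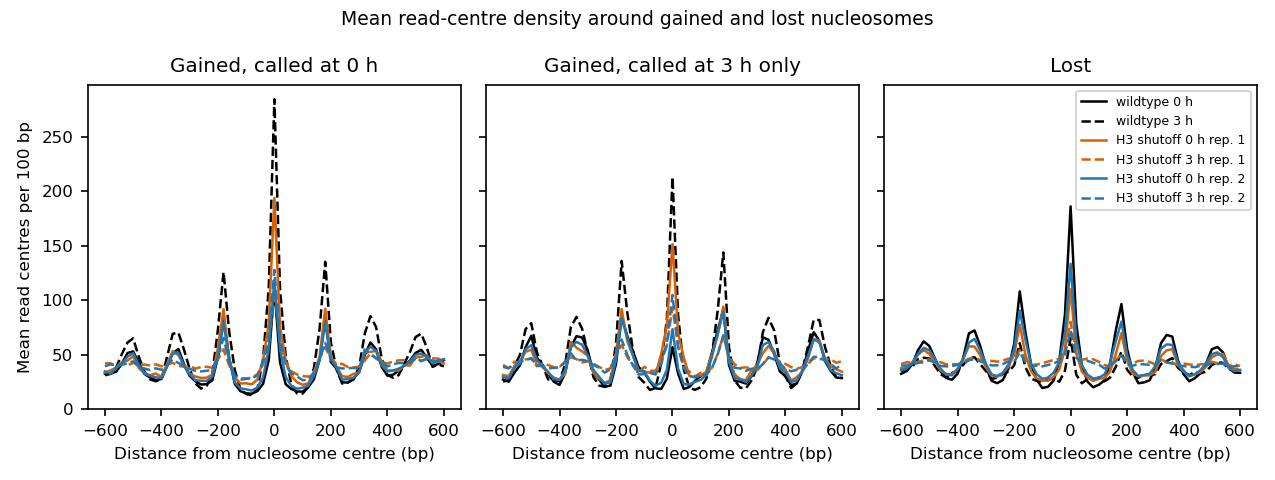
Mean read centres per 100 bp against distance from the nucleosome centre (bp) in the 6 libraries; black is wildtype, orange H3 shutoff replicate 1, blue replicate 2, solid lines 0 h and dashed lines 3 h. At the centre of gained nucleosomes called at 3 h only the means are 56.8 and 213 in wildtype, 152 and 93.2 in H3 shutoff replicate 1, and 73.4 and 105 in replicate 2 (0 h and 3 h).

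The mean profiles show the same order of libraries at the neighbouring nucleosomes. Gained nucleosomes sat in an array whose peaks were higher in wildtype at 3 h, and the peaks of both H3 shutoff libraries at 3 h were low on either side. At the centre of lost nucleosomes the mean was 186 read centres per 100 bp at 0 h and 65.0 at 3 h in wildtype. It was 110 and 80.1 in H3 shutoff replicate 1 at 0 h and 3 h, and 133 and 72.4 in replicate 2.

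Where the annotation covered them, gained nucleosomes lay between transcripts more often than other positions did. Transcript coordinates of this build were at hand for chromosomes 1, 10, 11, 12 and 13 and for chromosome 14 up to 247206, with 1999 transcripts. There, 89 of 232 gained nucleosomes (38.4%) lay between transcripts, against 1612 of 9896 positions (16.3%) and 25 of 245 lost nucleosomes (10.2%). Of the gained nucleosomes called at 3 h only, 32 of 62 (51.6%) did. Within 200 bp before a transcript start lay 45 (19.4%) of the gained, 12 (4.90%) of the lost and 645 (6.52%) of all. Lost nucleosomes lay inside transcripts beyond the first 250 bp in 196 of 245 cases (80%), against 64.2% of all. These shares are descriptions, since the wildtype counts that chose the nucleosomes also depend on where the calls of each list lie. Neither set gathered near chromosome ends, with 4.80% of gained and 3.93% of lost nucleosomes within 20 kb of an end against 5.22% of all. Every chromosome held both kinds, with 1.52% to 2.84% of its positions gained and 1.85% to 3.13% lost.

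The H3 shutoff libraries had no part in choosing the nucleosomes, and the question was whether the same sites changed when H3 synthesis had ended. Both pairs gave different answers at the gained sites. The median log2 change was -0.33 in pair 1 and 0.34 in pair 2, a mean of 0.0046 ± 0.47 (SD, n = 2 pairs), so that the difference between the pairs exceeded the mean. In pair 2, 508 gained nucleosomes (71.8%) had more read centres at 3 h, against 17.3% of all 30382. In pair 1, 236 (33.3%) did, against 25.1%. The commonest pattern, in 324 (45.8%; 9.59% of all), was more read centres at 3 h in pair 2 and fewer in pair 1. Both pairs went up at 184 (26.0%; 7.49% of all) and both went down at 138 (19.5%; 63.3% of all). A log2 of 1 or more was reached at 43 gained nucleosomes in pair 1 (6.07%; 1.14% of all), at 116 in pair 2 (16.4%; 0.612% of all) and at 7 in both (0.989%; 0.0461% of all). A log2 of -1 or less was reached at 122 in pair 1 (17.2%; 14.6% of all), at 3 in pair 2 (0.424%; 11.6% of all) and at 0 in both (3.41% of all).

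At the lost sites the median log2 change was 0.034 in pair 1 and -0.43 in pair 2, a mean of -0.20 ± 0.33 (SD, n = 2 pairs). More read centres at 3 h were found at 403 (51.1%) in pair 1, and at 145 (18.4%) in pair 2, which is close to the 17.3% of all positions in that pair. Both pairs went down at 330 (41.9%), fewer than the 63.3% of all, and 294 (37.3%; 17.2% of all) went up in pair 1 and down in pair 2. In both pairs 16 (2.03%; 3.41% of all) had a log2 of -1 or less. With these 16 included, 40 did in pair 1 (5.08%; 14.6% of all) and 116 in pair 2 (14.7%; 11.6% of all). By this count the lost set was below all positions in pair 1 and above them in pair 2.

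Level matters to this reading, since positions with few read centres at 0 h in wildtype behaved differently as a whole. Among 31879 calls that were neither gained nor lost and had 21 to 73 wildtype 0 h read centres, the range of the middle 80% of the gained set, the median log2 change was 0.037 in pair 1 and -0.070 in pair 2. Beside them the gained medians of -0.33 and 0.34 were lower in pair 1 and higher in pair 2. For the lost set the matching 18823 calls, with 62 to 120.3 read centres, had medians of -0.33 and -0.44. The lost set thus stood 0.034 against -0.33 in pair 1, and its -0.43 in pair 2 was close to the -0.44 of the matching calls.

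The disagreement of the pairs came with the 0 h libraries. The 0 h library of replicate 1 held more read centres than that of replicate 2 at 492 gained nucleosomes (69.5%), against 37.8% of all 30382. It was at least 2-fold higher at 216 (30.5%), against 1.53% of all, while replicate 2 was at least 2-fold higher at 9 (1.27%), against 2.33%. Among gained nucleosomes called at 3 h only, replicate 1 was at least 2-fold higher at 93 of 213 (43.7%). At lost nucleosomes the order turned, with replicate 1 at least 2-fold higher at 2 (0.25%) and replicate 2 at 60 (7.61%). The median log2 of replicate 1 over replicate 2 at 0 h was 0.41 at gained and -0.33 at lost sites, and -0.12 over all. At 3 h it was -0.10, 0.11 and -0.064, so that the replicates differed less at these sites at 3 h than at 0 h.

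**Figure D3:**
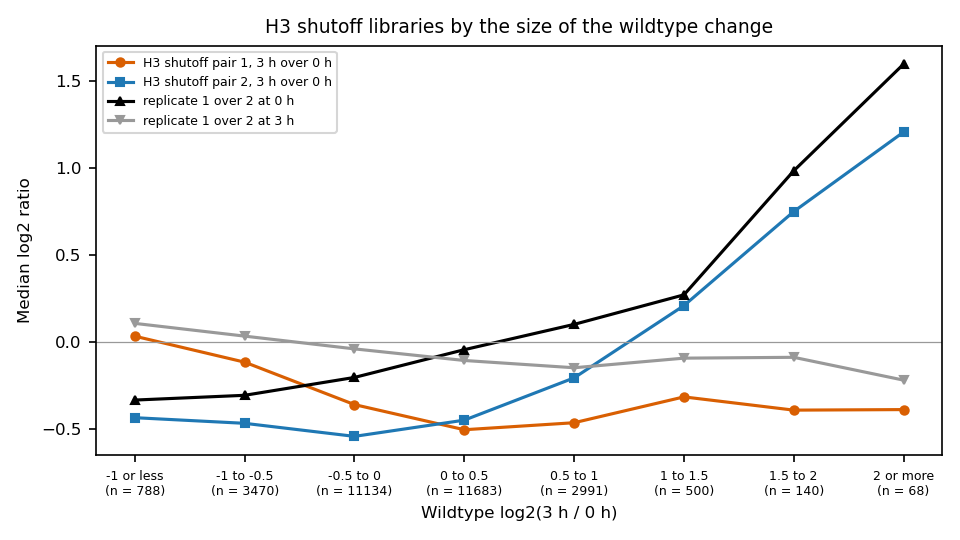
Medians over nucleosomes of 4 log2 ratios (vertical axis) in bins of the wildtype log2 change (horizontal axis, number of nucleosomes under each bin). The ratio of H3 shutoff replicate 1 over 2 at 0 h goes from -0.33 in the lowest bin to 1.60 in the highest, the change in pair 2 reaches 1.21, and pair 1 stays between -0.50 and 0.034.

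The difference between the 0 h libraries followed the size of the wildtype change, also among nucleosomes that did not reach the threshold. Its median log2 was -0.33 where wildtype fell 2-fold or more, -0.20 for wildtype changes of -0.5 to 0, 0.10 for 0.5 to 1, 0.98 for 1.5 to 2 (n = 140) and 1.60 for 2 or more (n = 68). The change in pair 2 followed with medians of 0.21, 0.75 and 1.21 in the 3 highest bins, and that in pair 1 was -0.31, -0.39 and -0.39 there. Across all 30382 positions the wildtype change correlated with the ratio of the 0 h libraries at r = 0.361 (Spearman rho 0.318), with pair 2 at r = 0.252 and with pair 1 at r = -0.172. These correlations run across nucleosomes of the same libraries, which are not independent replicates, and the ratio at 0 h enters both pair changes with opposite sign.

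Set beside wildtype on the log2 scale, H3 shutoff 0 h replicate 1 was nearer to wildtype 3 h than to wildtype 0 h at 357 of 708 gained (50.4%) and 412 of 788 lost nucleosomes (52.3%). Replicate 2 at 0 h was nearer to wildtype 3 h at 67 (9.46%) and 105 (13.3%). At 3 h the counts were 290 and 406 for replicate 1, and 323 and 463 for replicate 2. The wildtype counts that these distances are taken to also chose the sites, and a library at any level between them falls on either side, so the shares are a description and a share near 50% is no likeness to wildtype at 3 h. The labels give both 0 h libraries the same treatment and time. What set them apart was not tested.

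Called positions followed the same order. Of the 213 gained nucleosomes called at 3 h only in wildtype, 135 (63.4%) had a call within 20 bp in H3 shutoff 0 h replicate 1 and 68 (31.9%) in replicate 2 at 0 h. At 3 h the numbers were 120 (56.3%) and 139 (65.3%). Beside them stand 1483 positions called at 3 h only that were neither gained nor lost. There the shares in replicates 1 and 2 were 54.3% and 49.8% at 0 h, and 41.3% and 45.5% at 3 h. Only in replicate 2 at 0 h was the share of the gained set the lower one.

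Before transcript starts, where the gap of a promoter is usually found, the 0 h library of H3 shutoff replicate 1 was high at gained nucleosomes. At the 45 gained nucleosomes within 200 bp before a start the median count was 29 in wildtype at 0 h and 95 at 3 h. It was 114 and 67 in H3 shutoff replicate 1 and 34 and 66 in replicate 2. Replicate 1 at 0 h exceeded replicate 2 at 0 h at 43 of 45 (95.6%), and exceeded all other H3 shutoff libraries at 37 (82.2%). Over all 645 positions before a start these shares were 56.6% and 52.7%. At the 12 lost ones they were 5 and 4 of 12, with 0 h medians of 51 and 53.5 in replicates 1 and 2. Before the start of ERG2, a sterol isomerase of ergosterol synthesis, 145 bp upstream, there were 10 and 77 read centres in wildtype, 83 and 84 in replicate 1, and 20 and 66 in replicate 2. Before MET2, an acetyltransferase of methionine synthesis, 5 bp upstream, there were 21 and 95 in wildtype, 192 and 71 in replicate 1, and 21 and 90 in replicate 2. Before AAT2, the cytosolic aspartate aminotransferase, 105 bp upstream, there were 11 and 74, 133 and 120, and 22 and 80. In each of these, wildtype and replicate 2 were low at 0 h and replicate 1 was not. ERG2, MET2 and AAT2 were chosen after their values were seen.

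Within each pair, the binomial test of the study's methods was applied to the counts at the fixed windows, with a Bonferroni-corrected p under 0.01 called reduced or retained. Such a test compares the libraries of a pair and not the conditions. In pair 1, 85 gained nucleosomes (12%) were reduced, against 8.23% of all, and 6 were retained, against 0.221%. In pair 2, 2 were reduced, against 5.19%, and 48 (6.78%) were retained, against 0.26%. No gained nucleosome was reduced in both pairs (2.01% of all) or retained in both (0.0197% of all). Of the lost nucleosomes, 21 and 31 were reduced and 3 and 0 retained in pairs 1 and 2, and 6 (0.76%) were reduced in both.

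The 4 H3 shutoff libraries were then fitted together with edgeR (quasi-likelihood test with the replicate pair as a block, TMM scaling, Benjamini-Hochberg adjustment over all 57198 nucleosomes tested). Every gained and lost nucleosome passed the count filter and was tested. At an adjusted p under 0.05, 46 gained nucleosomes (6.50%) rose, against 0.527% of the 30382 and 2.34% of all tested. A single gained nucleosome fell (0.14%), against 4.14% of the 30382 and 2.23% of all tested. Among the lost, 22 (2.79%) fell and 7 (0.89%) rose. Beside calls of like wildtype level, 2.85% rose and 0.238% fell next to the gained set, and 0.266% rose and 2.15% fell next to the lost set. These calls rest on the block with 1 residual degree of freedom. Without the block edgeR called none of 57198, with a smallest adjusted p of 0.0682 and 12394 at an unadjusted p under 0.05, and DESeq2 with the block called none, with 1011 higher and 1445 lower at an unadjusted p under 0.05. Scaled by library totals alone, edgeR called 9 gained nucleosomes higher and 5 lower (0.582% and 5.04% of all tested), and with 1 read per identical interval it called 1 higher (0.08% of all tested). Without the count filter 43 were higher (2.22%) and 1 lower (2.23%).

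The counts moved when either 0 h library was left out. Such fits hold 3 libraries and must also drop the block, so that the library and the block cannot be told apart in them, and the lone 0 h library is assumed to vary like the others. Without that of replicate 1, edgeR called 168 gained nucleosomes higher and 0 lower, and without the 0 h library of replicate 2 it called 67 higher and 96 lower. Over all tested nucleosomes the same fits called 4.4% higher and 3.83% lower, and 6.5% higher and 6.53% lower. At lost nucleosomes they called 7 higher and 42 lower, and 43 higher and 36 lower.

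**Figure D4:**
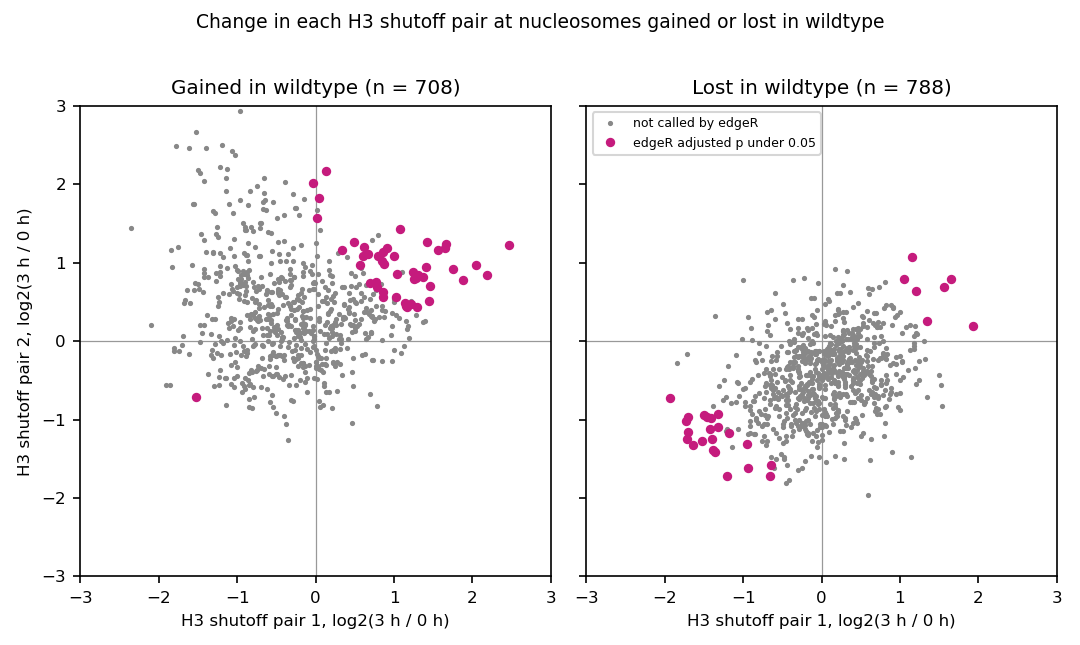
Log2 change (3 h over 0 h, pseudocount of 1 read) in H3 shutoff pair 1 (horizontal) and pair 2 (vertical), each point 1 nucleosome gained (left) or lost (right) in wildtype. Filled magenta points passed edgeR with the replicate block. Of 708 gained nucleosomes, 324 lie above 0 in pair 2 and below 0 in pair 1. The called ones gather where both pairs moved alike, which the fit that called them favours.

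In 142 gained nucleosomes (20.1%; 5.2% of all) both H3 shutoff libraries at 3 h lay above both at 0 h, and in 93 (13.1%; 56.5% of all) below. Of the 46 called higher by edgeR, 45 rose in both pairs and in 39 the libraries of the 2 times did not overlap. The fit that called the 46 used these same libraries and favours such sites, so both counts were likely in advance. The edgeR log2 changes of the 46 ran from 0.93 to 2.06. Of the 46, 17 belonged to runs of neighbouring gained nucleosomes, and 5 were at least 2-fold higher in replicate 1 than in replicate 2 at 0 h.

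Runs, 3 or more nucleosomes of a kind with neighbouring centres within 400 bp, held 67 gained nucleosomes in 18 runs and 96 lost ones in 28 runs. The longest gained run lay on chromosome 14 from centre 503961 to 505171, with 7 nucleosomes. Their read centres summed to 158 and 894 in wildtype, 163 and 358 in H3 shutoff replicate 1, and 183 and 431 in replicate 2. Here both 0 h libraries of the H3 shutoff strain were near the wildtype 0 h level, and both 3 h libraries were higher, by a log2 of 1.13 and 1.23 of the sums, beside 2.49 in wildtype.

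Within that run the nucleosome at chr14:504603-504703 had 17 and 114 read centres in wildtype, 12 and 71 in replicate 1, and 23 and 55 in replicate 2. It had the largest mean change in the wildtype direction among the 7 that at least doubled in both pairs and rose by an edgeR log2 of 2.06 (adjusted p = 0.000336). The one at chr14:504289-504389 had 18 and 111, 18 and 59, and 26 and 63 (edgeR log2 1.69, adjusted p = 0.003). At both, each 3 h library lay above every 0 h library, but both were chosen for at least doubling in both pairs. The one at chr14:504094-504194, with 27 and 228 in wildtype, went opposite ways, with 37 and 31 in replicate 1 and 26 and 87 in replicate 2.

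**Figure D5:**
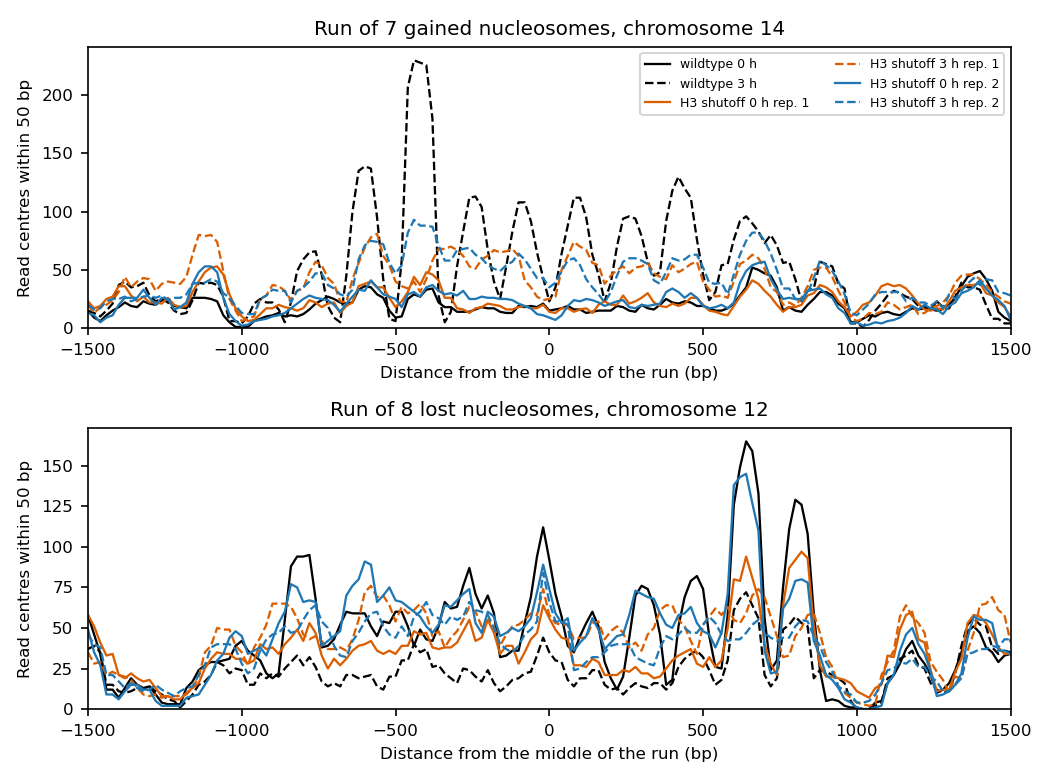
Read centres within 50 bp of each point against distance from the middle of the run (bp) in the 6 libraries, for the run of 7 gained nucleosomes on chromosome 14 (top) and the run of 8 lost nucleosomes on chromosome 12 (bottom). In the gained run the wildtype 3 h line shows separate peaks, the tallest with 228 read centres at the nucleosome's centre, while the H3 shutoff 3 h lines are above all 0 h lines over most of the run with broader peaks.

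A run of 5 gained nucleosomes on chromosome 2, from centre 451199 to 451858, gave 86 and 487 read centres in wildtype, 113 and 256 in replicate 1 and 118 and 266 in replicate 2. All 5 rose by edgeR, and its nucleosome at chr2:451490-451590 had the largest wildtype change of all, from 10 to 123, with 24 and 46 in replicate 1 and 24 and 56 in replicate 2 (edgeR log2 1.29, adjusted p = 0.0325). No annotation of this build covered this run or that on chromosome 14.

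A run of 5 gained nucleosomes on chromosome 13, from 508224 to 509462, covered ADE17, which carries out the last steps of purine synthesis. Their sums were 105 and 419 in wildtype, 150 and 280 in replicate 1 and 142 and 274 in replicate 2. The 4 in the body of the gene rose by edgeR (adjusted p from 0.0019 to 0.0256). The fifth, 147 bp before the start, had 21 and 67 in wildtype, 76 and 40 in replicate 1 and 25 and 46 in replicate 2. The gene body and the site before the start thus differed in replicate 1, where only the latter was high at 0 h among the 5.

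A run of 5 gained nucleosomes on chromosome 11, from 589942 to 590900, covered MTD1, a methylenetetrahydrofolate dehydrogenase of one-carbon metabolism. They summed to 217 and 598 in wildtype, 200 and 271 in replicate 1, and 238 and 314 in replicate 2. The one 380 bp after the start, with 32 and 139, 22 and 62, and 39 and 64, rose by edgeR (log2 1.28, adjusted p = 0.0168). The first of the run, 62 bp after the start, had 80 and 189, 101 and 77, and 67 and 100, and was not called (adjusted p = 0.606).

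Of the 46 gained nucleosomes that rose by edgeR, 19 lay where transcripts were annotated. Besides ADE17 and MTD1 they included ADE1, ADE4 and ADE12, enzymes of purine synthesis, SHM2, the cytosolic serine hydroxymethyltransferase, and SAM1, an S-adenosylmethionine synthetase. The nucleosome 968 bp after the start of ADE12 had 28 and 86 read centres in wildtype, 20 and 76 in replicate 1 and 48 and 83 in replicate 2 (edgeR log2 1.5, adjusted p = 0.00217). The one 290 bp after the start of ADE1 had 37 and 178, 27 and 61, and 64 and 88 (log2 0.98, adjusted p = 0.044). These genes were picked after their values were seen and belong to no list that was counted. FKS1, a subunit of the glucan synthase of the cell wall, held the fourth of the 7 by mean change. Its nucleosome 511 bp after the start, at chr12:810200-810300, had 23 and 71, 22 and 67, and 29 and 66 (edgeR log2 1.59, adjusted p = 0.00315), so that no 3 h library of either strain overlapped a 0 h library. The counts of both strains also chose it.

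The gained nucleosomes with the largest wildtype changes outside the runs showed the high replicate 1. On chromosome 16 at chr16:287180-287280 the counts were 8 and 92 in wildtype, 75 and 61 in replicate 1 and 25 and 95 in replicate 2. On chromosome 7 at chr7:859648-859748 they were 12 and 128, 137 and 75, and 25 and 61, and at chr7:485304-485404 they were 12 and 120, 86 and 56, and 46 and 56. On chromosome 15 at chr15:700996-701096 they were 7 and 69, 66 and 57, and 21 and 66. At these 4 sites replicate 1 at 0 h was above replicate 2 at 0 h, and edgeR called none of them (adjusted p from 0.0584 to 0.988). At chr16:287180-287280 the 3 h share of wildtype read centres was 92.0%, with an exact 95% binomial interval of 84.8% to 96.5%. The same counts chose the site, so that the interval is a description and no test.

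The 4 gained nucleosomes that went farthest against wildtype in both H3 shutoff pairs were chosen for that direction. On chromosome 12 at 559222, 212 bp before the start of SEC13 (a coat protein of vesicles) and inside another transcript, counts were 281 and 622 in wildtype, 497 and 132 in replicate 1 and 327 and 222 in replicate 2. On chromosome 10 at 709559, 154 bp before DAN1, a cell wall mannoprotein of anaerobic growth, they were 200 and 450, 397 and 109, and 241 and 164. On chromosome 13 at 30113, 245 bp before NDI1, the internal NADH dehydrogenase of mitochondria, they were 105 and 232, 160 and 55, and 105 and 64. On chromosome 5 at 202889 they were 56 and 141, 103 and 46, and 94 and 53. In all 4 the H3 shutoff libraries at 3 h lay below those at 0 h, and edgeR called the site before NDI1 lower (log2 -0.92, adjusted p = 0.0441) and not the other three (adjusted p from 0.0751 to 0.0974).

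The longest lost run had 8 nucleosomes on chromosome 12, from centre 445840 to 447467, over YLR152C and ACS2, the acetyl-CoA synthetase that cells need on glucose. The sums were 736 and 272 read centres in wildtype, 422 and 407 in replicate 1 and 621 and 393 in replicate 2. Replicate 1 was low at both times and replicate 2 at 3 h only. The nucleosome 666 bp after the ACS2 start had 75 and 13 in wildtype, 22 and 42 in replicate 1, and 71 and 26 in replicate 2. The nucleosome 340 bp after it, with 165 and 72, 93 and 59, and 145 and 48, was the one of the 8 that fell by edgeR (log2 -0.92, adjusted p = 0.0447). A run of 5 lost nucleosomes on chromosome 4, from 412007 to 412855, had a like pattern, with sums of 602 and 260, 305 and 279, and 458 and 263, and none called.

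Among the other lost nucleosomes with the largest wildtype changes, the H3 shutoff libraries mostly lay between the wildtype 0 h and 3 h counts at both times. On chromosome 14 at 210463, 262 bp after the start of YNL234W, counts were 89 and 9 in wildtype, 31 and 41 in replicate 1 and 57 and 33 in replicate 2. On chromosome 4 at 550364 they were 113 and 15, 65 and 66, and 78 and 66. On chromosome 11 at 245915, 714 bp before GFA1 and inside a transcript, they were 67 and 9, 42 and 43, and 41 and 34. On chromosome 16 at 902463 they were 119 and 16, 120 and 44, and 103 and 47, and this site alone among these 4 was lower at 3 h in both pairs (edgeR log2 -1.08, adjusted p = 0.0169). In a window about 3 times as wide the wildtype log2 changes at these 4 were -0.01, -1.14, -0.34 and -0.64, in the order given. A 3 h wildtype call lay 70 bp from the site on chromosome 14.

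The lost nucleosomes with the largest change in the wildtype direction in both pairs included one 107 bp after the start of SSA2, an Hsp70 chaperone, at chr12:97351-97451. It had 141 and 40 read centres in wildtype, 128 and 55 in replicate 1 and 161 and 48 in replicate 2 (edgeR log2 -1.27, adjusted p = 0.00461). The others lay on chromosome 15 at 1007329 (122 and 54, 65 and 19, 77 and 32), chromosome 16 at 902124 (135 and 55, 130 and 41, 124 and 49) and chromosome 14 at 354695 (191 and 93, 132 and 40, 120 and 53). Their adjusted p values by edgeR were 0.0183, 0.00403 and 0.00587. At all 4 every 3 h library lay below every 0 h library of the H3 shutoff strain. They were chosen for a log2 of -1 or less in both pairs, which made this likely in advance. Over the whole lost set it held at 275 (34.9%), against 56.5% of all 30382 positions.

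Against wildtype in both pairs went 4 named lost nucleosomes, each with more read centres at 3 h in the H3 shutoff strain. On chromosome 12 at 919772, before SKI2 (a helicase that acts with the RNA exosome) and inside a transcript, counts were 62 and 25 in wildtype, 26 and 84 in replicate 1 and 33 and 58 in replicate 2. On chromosome 15 at 576508 they were 69 and 32, 40 and 120, and 54 and 88, and at 575591 they were 78 and 27, 16 and 64, and 48 and 55. On chromosome 13 at 732916 they were 88 and 40, 46 and 104, and 45 and 96. All 4 rose by edgeR (log2 up to 1.45, adjusted p from 0.00281 to 0.0302).

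Genes of the carbon source response were counted by lists, with the nucleosomes in the transcript and 500 bp before its start. Of 13 glucose-repressed genes, 11 held a changed nucleosome, and of their 96 positions 11 were gained and 9 lost. Beside them stand the 2.33% gained and 2.59% lost of all positions, and 375 of 1941 annotated transcripts (19.3%) that held a changed nucleosome over the same stretch, all on the wildtype counts that chose the nucleosomes.

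PCK1, the phosphoenolpyruvate carboxykinase of gluconeogenesis, held 4 gained nucleosomes and 1 lost. The lost one, 52 bp after the start at chr11:630784-630884, had 96 and 14 read centres in wildtype, 94 and 71 in replicate 1 and 80 and 59 in replicate 2. In a window about 3 times as wide its wildtype log2 change was -0.09, and a 3 h wildtype call lay 55 bp away. A gained one, 172 bp after the start, had 32 and 80, 39 and 18, and 41 and 33. The gained one 860 bp after the start had 73 and 224 in wildtype, 52 and 53 in replicate 1 and 75 and 60 in replicate 2. Those 669 and 1035 bp after it had 43 and 136, 34 and 39, and 46 and 42, and 73 and 148, 46 and 46, and 66 and 55. At these 3 sites no H3 shutoff library reached the wildtype 3 h count.

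FBP1, the fructose-1,6-bisphosphatase of the same pathway, held 4 lost nucleosomes and no gained one. The one 250 bp after the start had 93 and 11 in wildtype, 37 and 54 in replicate 1 and 73 and 32 in replicate 2, and those at 61 and 610 bp fell by edgeR. The one at 61 bp had 129 and 50, 101 and 40, and 127 and 59 (log2 -1.01, adjusted p = 0.0269), and the one at 610 bp had 89 and 36, 123 and 44, and 85 and 43 (log2 -1.03, adjusted p = 0.0264). Both genes of gluconeogenesis thus changed in wildtype, PCK1 mostly by gains and FBP1 by losses.

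SFC1, a mitochondrial succinate-fumarate carrier, held 2 gained nucleosomes, with 112 and 264 read centres in wildtype, 131 and 72 in replicate 1 and 131 and 78 in replicate 2 at the one 649 bp after the start. SDH1, a subunit of succinate dehydrogenase, held 2, ADH2 (the alcohol dehydrogenase that consumes ethanol), JEN1 (lactate permease) and CYB2 (lactate dehydrogenase) 1 each. CYC1 (cytochrome c), ACO1 (aconitase), YAT1 (a carnitine acetyltransferase) and GDH3 (a glutamate dehydrogenase) each held 1 lost nucleosome. Apart from the 2 of FBP1, edgeR called no changed nucleosome of this list in the H3 shutoff strain.

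The other lists held fewer, but over fewer positions. Genes outside the annotated chromosomes are in none of the lists. Of 3 genes of galactose use, PGM2 (phosphoglucomutase) held 3 lost nucleosomes and GAL2 (galactose permease) 1, while GAL80 (the repressor of the GAL genes) held none, over 28 positions. The PGM2 nucleosome 235 bp after the start had 143 and 67 in wildtype, 65 and 65 in replicate 1 and 123 and 53 in replicate 2, the latter reduced by the binomial test. Of 6 chaperone genes, 5 held 7 lost nucleosomes over 36 positions and none held a gained one: SSA1 and SSA2 had 2 each, HSP104, SSC1 and HSP60 1 each. Of all annotated transcripts 200 of 1941 (10.3%) held a lost nucleosome and 202 (10.4%) a gained one, and of all positions 2.59% were lost and 2.33% gained. The SSC1 nucleosome (mitochondrial Hsp70), 169 bp after the start, had 79 and 21 in wildtype, 46 and 58 in replicate 1 and 64 and 39 in replicate 2. Among 8 genes of glycolysis and fermentation TDH1 held 2 lost nucleosomes and PDC5 1 gained, and among 3 hexose transporter genes HXT8 held 1 gained.

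The gained nucleosomes before HXT8, ADH2 and PDC5 had the high replicate 1 of the promoter sites. Before PDC5, an isoform of pyruvate decarboxylase, 224 bp upstream, counts were 28 and 93 in wildtype, 125 and 51 in replicate 1 and 33 and 57 in replicate 2. Before HXT8, 355 bp upstream, they were 32 and 114, 88 and 48, and 27 and 48. Before ADH2, 280 bp upstream and 110 bp before the divergent UBP15, they were 39 and 109, 143 and 86, and 31 and 50. At these 3 sites replicate 1 at 0 h was the highest of the H3 shutoff libraries.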

How the data were processed

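The 6 MNase-seq libraries were grouped by their titles. The authors used Bowtie 0.12.6 and sacCer1, lengthened reads to the mean fragment length, discarded ribosomal DNA and sampled libraries to equal size. The deposited intervals list 1 extended read per line (158 to 174 bp). The deposited lists of nucleosomes hold raw counts within 50 bp of each called centre, and a recount from the intervals matched at least 99.996% of them. The lists' other columns were not used.

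Counts were fitted with edgeR 4.0.16 (R 4.3.3; mean of at least 10 read centres over 4 libraries), with DESeq2 1.42.0 as an alternative. Log2 ratios used a pseudocount of 1 read. The binomial test needed more than 5 read centres at 0 h and at 3 h. The replicate pair was a block because the 0 h and 3 h cells of a replicate were split from 1 culture. Same-numbered libraries did not deviate together (r = -0.0941 over 57198 nucleosomes). On simulated data for that edgeR comparison (57198 nucleosomes), 6% of 2-fold and 67% of 4-fold changes were recovered with 1 false call. Apart from the changes put in, the simulated libraries shared a mean at each nucleosome. They lacked the difference between the real 0 h libraries, so the simulation cannot show how many calls in these data are false.

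Nucleosomes were named by a rule: for gains and losses apart, the 6 largest wildtype changes, the 4 largest mean H3 shutoff changes with wildtype (log2 of at least 1 in both pairs) and the 4 against it in both pairs, up to 6 runs in all, the 2 just inside and 2 just outside the threshold, and 5 gene lists (glucose-repressed, galactose use, hexose transport, glycolysis, chaperones). Members and lists were chosen with earlier results of these data known. Gene positions came from the study's transcript coordinates, of which a part was used, and 1813 of 1999 transcripts had a RefSeq symbol. One hexose transporter gene, HXT16, had no transcript there. Alternatives were other windows, depth minimums, pseudocounts, scalings, 1 read per identical interval, no block, DESeq2 and leaving out replicates.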

Additional observations from a re-analysis of the deposited data

Results flagged for a closer look

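At 13 nucleosomes named by the rule, gene lists included, every H3 shutoff pair moved against the wildtype pair. This difference was not tested, since wildtype has 1 pair. All 13 were flagged by that direction. Over all 30382 positions 63.3% went down in both pairs and 7.49% went up in both. A fall in both pairs at a gained site is thus the common course of all positions. For 8 of the 13 the direction in both pairs is also how they were named. For these the mean log2 changes of the H3 shutoff pairs were -1.23 at chromosome 12 centre 559222, -1.20 at chromosome 10 centre 709559, -1.11 at chromosome 13 centre 30113 and -0.98 at chromosome 5 centre 202889, all gained in wildtype. Among lost nucleosomes they were 1.23 at chromosome 12 centre 919772, 1.13 at chromosome 15 centre 576508, 1.12 at chromosome 13 centre 732916 and 1.06 at chromosome 15 centre 575591. The ninth, on chromosome 12 at 446433 in the body of ACS2, had a mean of 0.28, from 44 to 51 and from 47 to 60 read centres where wildtype went from 62 to 17. The other 4 were gained nucleosomes of glucose-repressed genes. The mean was -0.69 at chromosome 11 centre 630954 (PCK1) and -0.21 at chromosome 11 centre 23154 (JEN1). It was -0.75 at chromosome 10 centre 609943 and -0.80 at chromosome 10 centre 610122 (both SFC1). In the H3 shutoff strain edgeR called none of the 4. At JEN1 the changes of -0.35 and -0.07 in pairs 1 and 2 were smaller falls than the medians over all positions, -0.39 and -0.45.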

How the results depend on the processing

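With 1 read per identical interval 0 nucleosomes were gained and 0 lost, since a window that narrow then holds few distinct intervals. With at least 100 read centres 336 were gained and 174 lost. Other settings gave 495 to 799 gained and 600 to 785 lost, and windows of 73 bp shared 516 of 708 and 422 of 788. The mean H3 shutoff log2 change ranged from -0.328 (pair 1 alone) to 0.337 (pair 2 alone) at gained and from -0.516 (at least 100 read centres) to 0.057 (1 read per interval) at lost nucleosomes, so its sign was not stable. With a single pair, binomial calls were 6 to 48 (gained, retained), 2 to 85 (gained, reduced), 0 to 3 (lost, retained) and 21 to 31 (lost, reduced). Lost nucleosomes retained in both pairs were 1 with TMM totals. Those reduced in both were 0 with TMM totals, 0 with 1 read per interval and 1 with 73 bp. On all 4 libraries, edgeR without the replicate block and DESeq2 with it gave counts of 0 over all nucleosomes, gained and lost, in each direction, while unadjusted p under 0.05 was reached by 120 gained higher and 15 lower without the block, 32 and 3 by DESeq2. With library totals, which move the median log2 of all nucleosomes from 0.0222 to -0.184, calls were 333 higher and 2883 lower over all, 9 and 5 gained, 3 and 41 lost. With 1 read per interval they were 45 and 0 over all, 1 and 0 gained, 0 and 0 lost. Added after seeing the data were fits without H3 shutoff 0 h replicate 1 (2514 and 2189 over all, 168 and 0 gained, 42 lost lower) and without 0 h replicate 2 (3720 and 3736 over all, 96 gained lower, 43 and 36 lost). Leaving out a whole replicate leaves edgeR no residual degree of freedom. In simulation 2-fold changes at single sites were rarely recovered, and the part of depth in this was not tested.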
